A study of Homo sapiens with 6 samples.

Results

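CTDSP1, CTDSP2, CTDSPL and CTDSPL2 encode a family of small phosphatases, and introns of the first 3 hold the hairpins of the microRNA miR-26. They are 4 of the 35580 genes to which the transcripts of the deposited tables could be joined, and all 4 were among the 15204 genes tested. They were chosen by name, with the response of CTDSP2 to the knockdown already known. Their differences between the groups are therefore given as a description, with a standard error and no p-value. The cells were Rh30, a human alveolar rhabdomyosarcoma line positive for the PAX3-FOXO1 fusion, and every library came from that line. Messenger RNA was sequenced from 3 control cultures and 3 cultures in which the RNA helicase DDX5 had been knocked down, labelled siDDX5 and named as biological replicates 1 to 3. The sources used here give neither the sequence of the knockdown reagent, nor the reagent used in the control, nor the time of harvest. The p-values given for other genes set the difference between the groups against the spread between these cultures of 1 line.

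The small CTD phosphatases remove phosphate from serines in the C-terminal domain of the large subunit of RNA polymerase II. They are also known to act on SMAD transcription factors, on the retinoblastoma protein RB and on REST, the repressor that keeps neuronal genes silent outside neurons. CTDSP1, CTDSP2 and CTDSPL each carry a miR-26 hairpin within an intron, so host and microRNA share a primary transcript, and CTDSPL2 is a more distant relative that carries none. DDX5 is known as a partner of Drosha, the nuclease that cuts microRNA hairpins out of primary transcripts, and as a regulator of splicing.

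The 3 hairpins give 2 mature sequences, which are shown because their seed defines the target sites examined here. In the RefSeq records for GRCh38.p14, with bases 2 to 8, the seed, in capitals, they read 5′ to 3′ as follows.
hsa-miR-26a-5p: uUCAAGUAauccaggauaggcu
hsa-miR-26b-5p: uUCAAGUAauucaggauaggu
Both hold the seed UCAAGUA. Counted from the 5′ end of miR-26a-5p, the b form differs by C11U and C21U and is 21 bases long against 22. The strands from the other arm of each hairpin, with their own bases 2 to 8 in capitals, differ more between the loci.
hsa-miR-26a-1-3p: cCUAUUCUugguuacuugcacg
hsa-miR-26a-2-3p: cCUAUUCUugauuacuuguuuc
hsa-miR-26b-3p: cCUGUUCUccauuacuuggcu
The pair of 26a strands share the seed CUAUUCU, whereas that of 26b is CUGUUCU.

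Each hairpin lies on the strand of its host. In GENCODE 29 on GRCh38, MIR26A2 spans chr12:57824609-57824692 in intron 5 of the 7 introns of CTDSP2-201, the main coding transcript of CTDSP2 (ENSG00000175215.10, chr12:57819927-57846739, minus strand). That intron is 2026 bases long, and the hairpin ends 289 bases before the next exon. MIR26A1 spans chr3:37969404-37969480 in intron 5 of 7 of CTDSPL-201 (CTDSPL, ENSG00000144677.14, chr3:37861960-37984469, plus strand), an intron of 3524 bases. MIR26B spans chr2:218402646-218402722 in intron 4 of 6 of CTDSP1-201 (CTDSP1, ENSG00000144579.7, chr2:218398256-218405941, plus strand), an intron of 629 bases. CTDSPL2 (ENSG00000137770.13) lies at chr15:44427234-44529038 on the plus strand. The deposited tables hold 0 rows for the hairpins, and mature microRNAs were not measured in these mRNA libraries. Every statement about miR-26 here therefore concerns its hosts or genes with sites for it, not its level.

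The libraries held 21265569 to 26156858 estimated counts in the control and 18202402 to 19971888 in the siDDX5 group, so 3 counts corresponded to 0.115 to 0.165 CPM, the count scaled to a common library total. DDX5 itself (chromosome 17) stood at 1356, 1438 and 1141 CPM in control replicates 1, 2 and 3 and at 551, 506 and 397 CPM in siDDX5 replicates 1, 2 and 3. Its log2 fold change was −1.44 (SE 0.15, edgeR quasi-likelihood test, Benjamini-Hochberg adjusted p = 0.0115), and the groups did not overlap. The call was lost by limma-trend on TPM (adjusted p = 0.0856 with a pseudocount of 1), without control replicate 1 (0.0916), siDDX5 replicate 1 (0.0583) or siDDX5 replicate 2 (0.0587). All 8 rhabdomyosarcoma markers examined, among them MYOD1, MYOG and FGFR4, were above 1 CPM, with summed levels of 1202 to 1641 CPM in the control and 1222 to 1366 CPM in the siDDX5 libraries. Of the 4 epithelial markers, 3 were at or under 1 CPM (sums 1.95 to 2.37 and 2.39 to 3.07 CPM), and of the 4 leukocyte markers 2 were (sums 14.02 to 16.9 and 10.9 to 13.5 CPM). The leukocyte sums lay mostly in the lysosomal gene CD68 (13.1 and 10.5 CPM by the means), and the leukocyte gene PTPRC stood at 2.00 and 1.23 CPM. In bulk cultures fewer cells expressing a gene and less of its RNA per cell cannot be told apart.

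CTDSP2 was by far the most abundant of the family. On the TPM scale, which allows for transcript length and so lets genes be compared, it stood at 1239, 1038 and 1040.5 in control replicates 1, 2 and 3, and at 629.7, 434 and 525 in siDDX5 replicates 1, 2 and 3. Every siDDX5 library lay below every control library. Its control mean of 1106 ± 115 TPM (SD, n = 3) ranked 104th from the top among the 35580 genes. CTDSPL2 followed, with 56.9, 62.6 and 68.4 TPM in the control and 75.6, 54.5 and 69.5 TPM in the siDDX5 libraries, values that overlapped. CTDSP1 came next, at 30.1, 24.2 and 18.6 TPM against 23.1, 22.6 and 18.1 TPM, also overlapping. CTDSPL was lowest, at 15.6, 14.1 and 13.0 TPM against 19.2, 13.2 and 13.7 TPM. In the control libraries the 4 genes kept this order without any overlap between neighbours, whereas in the siDDX5 libraries the levels of CTDSP1 and CTDSPL overlapped.

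**Figure D1:**
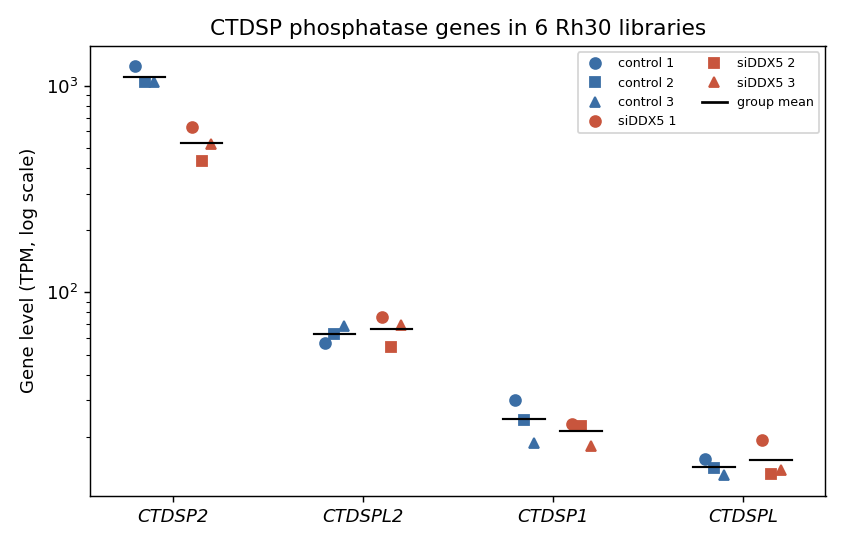
Level of each phosphatase gene in each library, in TPM on a log axis, with circles, squares and triangles for replicates 1, 2 and 3, blue for control, red for siDDX5 and a line at the group mean. CTDSP2 is the gene whose groups are apart (1038 to 1239 TPM against 434 to 629.7 TPM), and those of the other 3 overlap.

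The summed level of the 4 genes was 1207 ± 117 TPM in the control and 633 ± 112 TPM in the siDDX5 libraries (SD, n = 3 each). CTDSP2 made up 92.4%, 91.1% and 91.2% of that sum in control replicates 1, 2 and 3, and 84.2%, 82.8% and 83.8% in the siDDX5 replicates. The share of the dominant member was thus lower in each siDDX5 library than in any control library. By this sum, the family's messenger RNA remained mostly CTDSP2 in both groups.

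On counts normalised for library size and composition, CTDSP2 stood at 2289, 1893 and 2068 CPM in the control and at 961, 854 and 958 CPM in the siDDX5 libraries, or 2083 ± 198 against 924 ± 61.1 CPM. The groups did not overlap, and 9.2% of all genes tested were lower in that sense. The log2 fold change was −1.17 (SE 0.12), a level 2.25-fold lower, and it ranked 22nd from the lowest among the 15204 genes tested. The difference was of similar size in each pair of same-numbered libraries, with log2 ratios of −1.25, −1.15 and −1.11 for replicates 1, 2 and 3. CTDSP2 was 1 of 4 members called at an adjusted p under 0.05. It was also the 1 called with the replicate block. Over all genes tested 0.171% were called in either direction and 0.118% were called lower (2.48% and 1.4% with the block), and nothing is read from the members' count, since the choice of genes used this contrast. CTDSP2 was not called without control replicate 1, without siDDX5 replicate 1, without siDDX5 replicate 3 or in limma-trend on log2(TPM + 1) or log2(TPM + 0.1). Its log2 fold change without any 1 library lay between −1.23 and −1.09.

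The other members differed less. CTDSPL2 stood at 107, 106.6 and 119.9 CPM in the control and at 135, 123 and 131 CPM in the siDDX5 libraries. These groups did not overlap, the siDDX5 libraries being the higher, as was the case for 8.85% of all genes tested, but on the TPM scale they did. Its log2 fold change was 0.22 (SE 0.10), and 0.08 by limma-trend on log2(TPM + 1). CTDSP1, host of MIR26B, stood at 39.5, 32.2 and 23.8 CPM against 30.9, 35.0 and 25.2 CPM, a log2 fold change of −0.07 (SE 0.19). Its sign turned with single libraries, from −0.24 to 0.12 with 1 left out at a time, and with a correction for GC content (0.02). CTDSPL, host of MIR26A1, was level, at 34.4 ± 1.98 CPM in the control and 34.8 ± 0.464 CPM in the siDDX5 libraries (SD, n = 3 each), with a log2 fold change of 0.02 (SE 0.11). Of the 3 host genes, the CTDSP2 host of MIR26A2 was the one whose groups did not overlap in CPM or TPM. The reads behind these values numbered 15721 to 58683 estimated counts per library for CTDSP2, 2265 to 2896 for CTDSPL2, 622 to 906 for CTDSPL and 457 to 1013 for CTDSP1.

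The tables list 42 transcripts of the 4 genes, 8 of them from CTDSP2. The authors' quantifier had apportioned reads that fit several transcripts, and the tables hold no estimate of the uncertainty of that step. The full-length coding transcript CTDSP2-201 (ENST00000398073.7, 4785 bases) stood at 520, 435 and 507 TPM in control replicates 1, 2 and 3 and at 219, 174 and 219 TPM in the siDDX5 replicates, 41.8% of control by the means. The shorter coding transcript CTDSP2-205 (797 bases) stood at 324, 242 and 257 TPM against 158, 54.4 and 103 TPM, 38.3% of control. CTDSP2-206, a coding fragment of 544 bases, had 123, 114 and 89.8 TPM against 66.8, 42.7 and 46.2 TPM, or 47.7%. In all 3 coding transcripts each siDDX5 library was below each control library. Another coding transcript, CTDSP2-203, ranged from 9.44 to 60.6 TPM in the control and from 2.64 to 22.3 TPM in the siDDX5 libraries, with overlap.

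Both transcripts annotated as retaining an intron were less reduced. CTDSP2-202 (ENST00000547169.5, 1340 bases, chr12:57822891-57824543) begins inside intron 5, 65 bases downstream of the miR-26a-2 hairpin, and keeps the last 224 of the intron's 2026 bases. It does not contain the hairpin. CTDSP2-202 stood at 142, 145 and 108 TPM in the control and at 95.4, 101 and 92.4 TPM in the siDDX5 libraries, 73.2% of control, and the groups did not overlap. CTDSP2-208 (ENST00000552294.1, 436 bases, chr12:57826379-57827407) keeps 310 of the 454 bases of intron 3. It stood at 63.6, 79.7 and 64.3 TPM against 64.5, 47.3 and 59.1 TPM, 82.3% of control, and the groups overlapped. The splice acceptors that these transcripts read across are shown because they mark where each departs from the spliced form. They are given on the transcript strand from the GENCODE 29 transcript sequences, 20 intronic bases and then 10 exonic ones, with the AG that ends the intron in capitals.
CTDSP2-202, end of intron 5, chr12:57824310-57824339, minus strand: gctgctctgctcttcctcAGgtgtatgtgc
CTDSP2-208, end of intron 3, chr12:57827088-57827117, minus strand: gcaacctggcttggttttAGatcccaggga
In the spliced coding transcripts the bases up to and including this AG are removed.

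**Figure D2:**
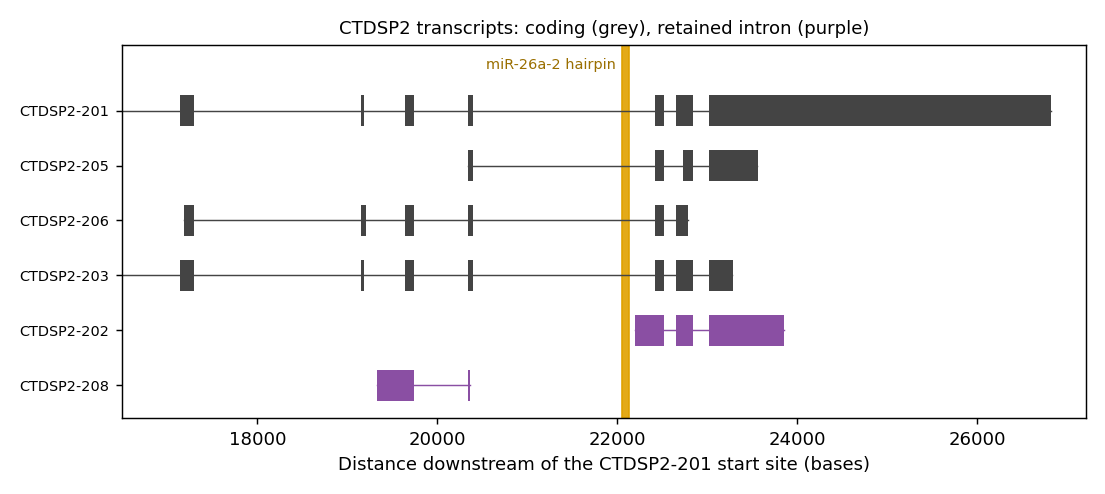
Exons (boxes) and introns (lines) of 4 coding (grey) and the 2 retained-intron (purple) transcripts of CTDSP2 over the 3′ portion of the gene, by distance in bases downstream of the CTDSP2-201 start site, with the miR-26a-2 hairpin as a gold band. The hairpin lies within intron 5 of CTDSP2-201, and CTDSP2-202 starts 65 bases beyond it.

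Summed by class, the coding transcripts of CTDSP2 stood at 1028, 808 and 864 TPM in the control and at 466, 284 and 371 TPM in the siDDX5 libraries. The retained-intron transcripts stood at 205, 225 and 172 TPM against 159.9, 149 and 152 TPM. Both classes were lower in every siDDX5 library, the coding class at 41.5% of control and the retained-intron class at 76.3%. As a share of the gene's estimated counts, retained-intron transcripts made up 5.92%, 7.36% and 4.93% in control replicates 1, 2 and 3, and 9.27%, 12.4% and 9.40% in the siDDX5 replicates. The groups did not overlap, and the means differed by 4.30 percentage points (6.07 ± 1.22% against 10.4 ± 1.79%, SD, n = 3 each). As a share of TPM, in which these short transcripts weigh more, the difference was 11.2 percentage points (18.3 ± 2.95% against 29.5 ± 4.47%). With single libraries left out the difference in share of counts lay between 3.26 and 4.94 points. The share was higher although the retained-intron level itself was lower, since the coding transcripts were lower still.

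The same share was computed for the 3140 genes whose retained-intron and coding transcripts each averaged at least 50 counts. Their median difference was −0.74 percentage points, with quartiles of −2.39 and 0.23, and CTDSP2 ranked 120th from the highest. Groups without overlap and with the higher share under siDDX5 occurred in 2.61% of these genes, and those with the lower share in 11.6%. Over whole libraries, retained-intron transcripts took 4.89%, 6.05% and 5.24% of counts in the control and 5.06%, 4.65% and 5.00% in the siDDX5 libraries. The difference for CTDSP2 therefore lay on the other side of 0 from that of most of these genes, and since CTDSP2 was chosen with its response known it is a description.

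**Figure D3:**
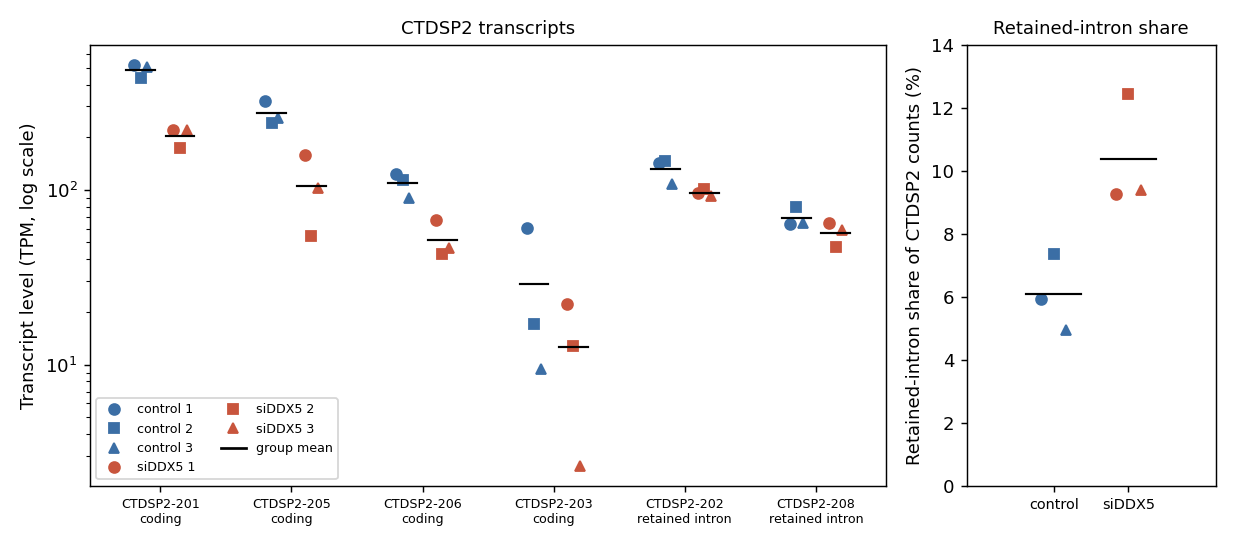
Left, level of 6 CTDSP2 transcripts in each library in TPM on a log axis; right, percent of the gene's estimated counts on retained-intron transcripts, with a line at each group mean and symbols for replicates. CTDSP2-201, CTDSP2-205, CTDSP2-206 and the retained-intron transcript CTDSP2-202 lie apart between the groups. The retained-intron share is 4.93% to 7.36% in the control and 9.27% to 12.4% in the siDDX5 libraries.

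In the other members the main coding transcripts held similar shares in both groups or varied within a group. CTDSP1-201 held 75.1 ± 1.71% of the gene's counts in the control and 76.7 ± 2.75% in the siDDX5 libraries (SD, n = 3 each). The 3 retained-intron transcripts of CTDSP1 held 6.57%, 7.41% and 6.95% of counts against 5.58%, 6.20% and 4.95%. These shares did not overlap and were lower under siDDX5, opposite in sign to CTDSP2, but they rest on 22.6 to 66.6 counts per library. Among the 3140 genes described above, 11.6% had a lower share without overlap, and the median difference was −0.74 percentage points. The noncoding transcript CTDSP1-206 ranged from 0.0627 to 7.60 TPM in the control alone, and CTDSP1-209 from 0 to 2.22 TPM in the siDDX5 libraries, so the division of reads among the short CTDSP1 transcripts was unstable between replicates.

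CTDSPL has a pair of long coding transcripts, CTDSPL-206 with 7 exons and CTDSPL-201 with 8. CTDSPL-206 held 55.3 ± 1.35% of its counts in the control and 60.9 ± 8.63% in the siDDX5 libraries, and CTDSPL-201 held 41.3 ± 0.991% and 36.7 ± 8.48%. The wide spread came from siDDX5 replicate 3, with 70.0% on CTDSPL-206 and 28.2% on CTDSPL-201. The nonsense-mediated decay transcript of CTDSPL took 3.32%, 4.92% and 0% of the gene's TPM in the control and 19.6%, 13.7% and 8.87% in the siDDX5 libraries. The coding transcripts of CTDSPL took 95.2 ± 3.70% and 85.3 ± 5.60%. That decay transcript rests on 0 to 6.61 estimated counts per library, and by counts the coding transcripts held 99.1 ± 0.664% and 99.2 ± 0.453%. CTDSPL2-201 held 82.7 ± 1.95% of the counts of CTDSPL2 in the control and 83.3 ± 2.54% in the siDDX5 libraries. Its retained-intron share was 4.42 ± 1.58% and 4.70 ± 1.02%, a difference within the spread.

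CTDSP2 lies in a stretch of chromosome 12 that holds some highly expressed genes in these cells. CDK4, the cell cycle kinase 63.9 kb away, stood at 10784 TPM in the control by the mean, and OS9, a lectin of endoplasmic reticulum quality control, at 3401 TPM. Other genes of the stretch were far lower, such as SLC26A10 at 46.4 TPM and AC025165.3 at 16.0 TPM. Within 200 kb of CTDSP2, 14 other protein-coding genes were tested, and 0 were called (edgeR; 1 had an unadjusted p under 0.05, and DESeq2 called 0). Their log2 fold changes ran from −0.56 to 0.24 with a median of −0.03, and the groups overlapped in CPM for 13 of them. AVIL, the gene of an actin-binding protein that ends 1.22 kb from CTDSP2, stood at 280.5 ± 10.7 CPM in the control and 271 ± 19.5 CPM in the siDDX5 libraries (SD, n = 3 each), with −0.05 on the log2 scale (SE 0.10). ATP23, 59.3 kb away on the other side, had −0.19 (SE 0.12), TSFM 0.12 (SE 0.14) and CDK4 0.15 (SE 0.17). The lowest, AC025165.3, had −0.56 (SE 0.43) at 3.21 CPM in the control. B4GALNT1, a ganglioside synthase gene, had −0.48 (SE 0.18, edgeR adjusted p = 0.351), and the fit with a replicate block called it (adjusted p = 0.0274). The difference at CTDSP2 was thus not shared in size by any of the neighbours tested.

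**Figure D4:**
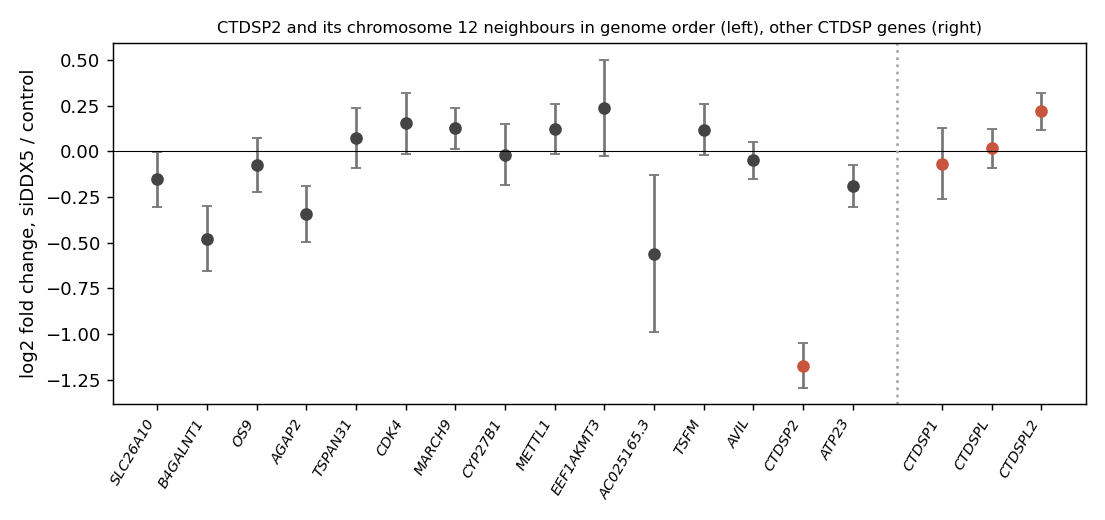
Log2 fold change (siDDX5 over control, edgeR, bars of 1 SE) of CTDSP2 and the 14 tested protein-coding genes within 200 kb in genome order, and of the other 3 phosphatase genes at the right. CTDSP2 stands at −1.17, while its neighbours lie between −0.56 and 0.24.

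Across the 6 libraries, the 5 genes of 10988 with at least 5 CPM whose log2 levels most resembled CTDSP2 were PLAT, DVL2, C1orf159, DHRS1 and MCM3. PLAT, the tissue plasminogen activator gene, had a Pearson r of 0.996 (Spearman rho 0.943) and stood at 116 ± 13.5 CPM against 59.0 ± 4.30 CPM (log2 fold change −0.97, edgeR adjusted p = 0.0202; the call was lost without control replicate 1 or any 1 siDDX5 replicate, at 0.0693 to 0.107). DVL2, a Wnt pathway adaptor, had r = 0.994 and a log2 fold change of −0.50 (edgeR adjusted p = 0.0801; 0.0206 with the replicate block). MCM3, a subunit of the replicative helicase, had r = 0.989 and −0.52 (edgeR adjusted p = 0.0781; 0.0245 with the block). C1orf159 had −0.47 (edgeR adjusted p = 0.233, and 0.0680 with the block). DHRS1 had −0.37 (edgeR adjusted p = 0.379, and 0.153 with the block), so neither was called in either fit. These correlations describe 6 points that fall into the 2 groups, so any gene that differs steadily between the groups scores high. On the same measure DDX5 had r = 0.951 with CTDSP2, CTDSP1 0.11, CTDSPL −0.10 and CTDSPL2 −0.82. The members of the family did not follow one level across the libraries.

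A site for miR-26 in a messenger RNA pairs with the seed. The letters TACTTGAA (8 bases) and TACTTGA or ACTTGAA (7 bases each) were searched on the sense strand of the annotated 3′ UTR of the most abundant coding transcript of 12957 genes. An 8-base match also contains both 7-base words, and genes with it were counted once, in the 8-base group. The 8-base match was held by 617 genes (4.76%) and a 7-base match alone by 2110 (16.3%). Among the hosts, CTDSP2-201 holds a single 7-base match, ACTTGAA, at base 3573 of its 3675-base 3′ UTR, and CTDSP1-201, CTDSPL-206 and CTDSPL2-201 hold none. The CTDSP2 match is shown in capitals because it lies in a host of the microRNA.
CTDSP2: tgttgtattcaaaaACTTGAAatgc
A match describes these letters and not a bound site.

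Of the 8 genes that were called higher under siDDX5 in the whole table (0.0526% of genes tested), 6 held a match, 2 of 8 bases and 4 of 7 bases. Of the 16 examined genes called lower, 5 held one, and of all 12957 genes examined 21.0% did. Those called higher made up 2 of the 617 genes with the 8-base miR-26 match. For 8-base matches to other microRNAs the counts were alike, at 2 of 440 (let-7a-5p), 1 of 585 (miR-206) and 2 of 391 (miR-29a-3p). MAPK6, an atypical MAP kinase gene, stood at 113, 119 and 117 CPM in the control and at 175, 184 and 187 CPM in the siDDX5 libraries. It rose by 0.65 on the log2 scale (SE 0.09, edgeR adjusted p = 0.0426), a call lost without any 1 of the 6 libraries (0.102 to 0.226). SFXN1, a mitochondrial serine transporter gene, rose from 71.6 ± 2.28 to 149.96 ± 10.3 CPM (log2 fold change 1.07, SE 0.10, edgeR adjusted p = 0.0110). Their 8-base matches are at bases 82 and 974 of their 3′ UTRs.
MAPK6: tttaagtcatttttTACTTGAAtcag
SFXN1: gtcacaatgaatttTACTTGAAtatt
In both, the groups did not overlap. HMGA2, an architectural chromatin protein of embryonic and tumour cells and a reported miR-26 target, rose from 37.7 ± 4.24 to 74.6 ± 12.5 CPM (log2 fold change 0.98, SE 0.14, edgeR adjusted p = 0.0426), and likewise lost the call without any 1 library (0.0601 to 0.230). It holds 3 matches of 7 bases in a 3003-base 3′ UTR, the first of which is shown, with 1 of DCP2, the messenger RNA decapping enzyme gene.
HMGA2: atcttgtagacactTACTTGAtgat
DCP2: agagcatttatcaaTACTTGAgtgc
DCP2 rose by 1.15 on the log2 scale (SE 0.16, edgeR adjusted p = 0.0291). PGM2L1, which also holds a 7-base match, rose by 1.10 (SE 0.10, edgeR adjusted p = 0.0110), and TEF and DDAH1, also called higher, hold none. All 8 lost the call without control replicate 1, without siDDX5 replicate 1 and by limma-trend on TPM, where the log2 difference was 0.62 for SFXN1 and 0.73 for DCP2. DCP2 lost it also without siDDX5 replicate 2 or 3. With a correction for GC content alone, 1 of the 8 lost the call. One gene with an 8-base match was called lower, ZFHX4, a zinc finger gene, which fell from 26.9 ± 8.91 to 1.25 ± 1.06 CPM (log2 fold change −4.40, SE 0.50, edgeR adjusted p = 0.0140). On log2(TPM + 1) it differed by −1.16 (limma-trend adjusted p = 0.535), and it was not called without control replicate 1, siDDX5 replicate 1 or siDDX5 replicate 2 (edgeR adjusted p = 0.0583 to 0.0916).

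Over all 617 genes with the 8-base match the median log2 fold change was 0.06, and 370 (59.97%) lay above 0. The median was −0.00 over the 10230 genes without a match, of which 5115 lay above 0, 0.03 over the 2110 with a 7-base match alone, and 0.01 over all 12957. The quartiles of the 8-base group were −0.09 and 0.23. With a correction for GC content the medians were 0.059 (8-base match), 0.015 (7-base match alone) and 0.015 (no match). The 7-base group was then level with the genes without a match. By limma-trend on log2(TPM + 1) the median of the 8-base group turned to −0.00 while that of all genes was −0.04. In same-numbered pairs its median log2 ratio was 0.16, 0.02 and 0.04 for replicates 1, 2 and 3, against −0.03, 0.03 and 0.01 for genes without a match, so that it was not the higher of these in replicate 2.

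With the replicate number as a block, 40 of the 617 genes (6.48%) were called higher and 10 (1.62%) lower, against 68 (0.665%) and 146 (1.43%) of the genes without a match. Over all genes tested this fit called 1.08% higher and 1.4% lower. With group as the only term 2 of the 617 were called higher and 1 lower. The block count was 64, 74 and 22 without the pairs of replicate 1, 2 and 3, or 10.4%, 11.99% and 3.57% of the genes with a match, against 2.98%, 2.22% and 0.442% of those without. Each of these fits rests on the remaining 2 pairs, which leave little to estimate the spread. Nothing is therefore read from the size of these counts. Genes with a match also had longer and more AT-rich 3′ UTRs, with a median of 2798 bases and 37.3% GC against 722 bases and 43.6% GC. With a correction for the GC content of the transcripts added to the block, 48 (7.78%) of the genes with a match and 1.12% of those without were called higher. The part of 3′ UTR length in the difference was not tested. Genes with 8-base matches to other microRNAs had 3′ UTRs of like median length (2889.5 bases for let-7a-5p, 2947 for miR-206 and 2814 for miR-29a-3p) but a higher GC content than those of the miR-26 group, at 42.2%, 39.9% and 40.6%. For them the block fit called higher 11 of 440 (2.50%, let-7a-5p), 11 of 585 (1.88%, miR-206) and 9 of 391 (2.30%, miR-29a-3p), and their median log2 fold changes with group as the only term were 0.03, −0.01 and 0.03.

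**Figure D5:**
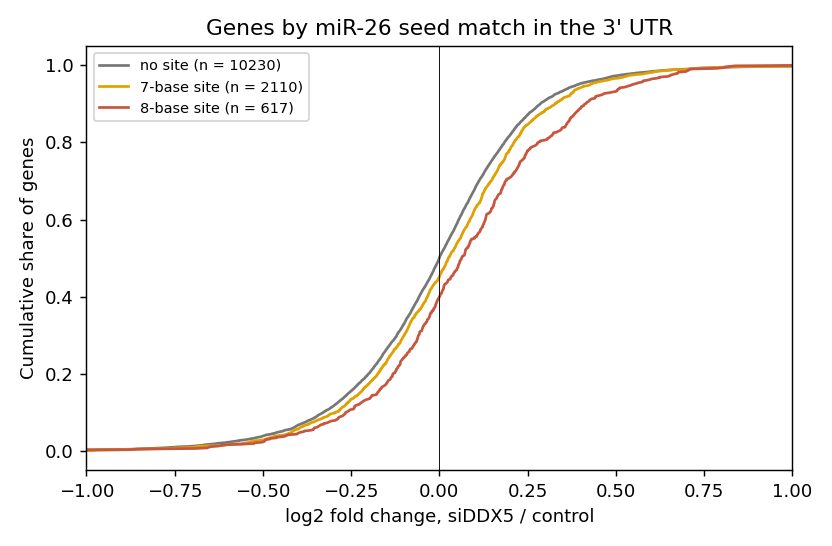
Cumulative share of genes by log2 fold change (siDDX5 over control) for genes with an 8-base miR-26 match in the 3′ UTR (617), a 7-base match alone (2110) and no match (10230). The 8-base curve lies to the right, with a median of 0.06 against −0.00 for genes without a match, and the curves overlap over most of their range.

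Of 22 genes reported as miR-26 targets, 21 were tested. Their median log2 fold change was 0.24 against −0.00 over all genes tested, 16 lay above 0, and edgeR called 1 higher, HMGA2, and 0 lower, with 8 at an unadjusted p under 0.05. With the replicate block 4 were called higher and 1 lower, and DESeq2 called 4. TDG, which excises thymine from mismatches and acts in DNA demethylation, stood at 51.3 ± 2.14 CPM against 72.9 ± 2.46 CPM (log2 fold change 0.51, edgeR adjusted p = 0.0773; 0.0198 with the block). ADAM17, a sheddase, stood at 54.3 ± 6.17 against 73.1 ± 3.33 CPM (0.43, edgeR adjusted p = 0.201; 0.0358 with the block). KPNA2, an importin, was called higher with the block (0.46, adjusted p = 0.0455). HMGA1, a relative of HMGA2, was called lower with it (−0.56, adjusted p = 0.0481). EZH2, the histone methyltransferase, holds the 8-base match at base 250 of its 261-base 3′ UTR, and stood at 78.9 ± 2.54 against 75.7 ± 7.16 CPM (log2 fold change −0.06, edgeR adjusted p = 0.873).
EZH2: ctttgaataaagaaTACTTGAActtg
The reported targets thus included genes on both sides of 0. Of the 21, 13 hold an 8-base match, 6 a 7-base match and 2 none.

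For genes of the processes in which the phosphatases act, the counts called are to be read against 0.171% of all genes tested (2.48% with the replicate block), a rate at which lists of this size hold few calls or none. Among 17 kinases, cyclins and phosphatases of the RNA polymerase II C-terminal domain, edgeR called 0 (1 at an unadjusted p under 0.05; DESeq2 called 1), with a median log2 fold change of −0.03. CDK8, the Mediator kinase, stood at 29.3 ± 4.34 CPM against 44.8 ± 4.51 CPM (0.61, SE 0.14, edgeR adjusted p = 0.134) and was called with the replicate block (adjusted p = 0.0154) and by DESeq2 (adjusted p = 0.00663). The phosphatase genes UBLCP1 and SSU72 had 0.22 and −0.18 (edgeR adjusted p = 0.566 and 0.608). CDK8 was thus the one gene of this list past the threshold in any of these fits.

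Among 21 genes of SMAD signalling, 1 was called, with a median of −0.00, and 2 were called with the replicate block. SKI, a corepressor that binds SMAD proteins, stood at 53.6, 53.8 and 48.2 CPM in the control and at 27.2, 27.3 and 24.5 CPM in the siDDX5 libraries. SKI fell by 0.98 on the log2 scale (SE 0.11, edgeR adjusted p = 0.0140), with no overlap. On log2(TPM + 1) the difference was −0.22 (limma-trend adjusted p = 0.737), and the edgeR call was lost without any 1 library other than control replicate 3 (0.0564 to 0.104). ID2, a transcriptional target of SMADs, and the receptor gene TGFBR1 had 0.37 and 0.30 (edgeR adjusted p = 0.420 and 0.428). SMAD7, an inhibitor of SMAD signalling, stood at 19.0 ± 4.81 against 27.9 ± 10.01 CPM with overlap (0.56, SE 0.25, edgeR adjusted p = 0.449; 0.23 without siDDX5 replicate 2) and was the other gene called with the block (adjusted p = 0.0392). Of 20 genes of RB and the entry into S phase 0 were called by edgeR (4 at an unadjusted p under 0.05) and 0 by DESeq2, with a median of −0.06. RBL2 and E2F2, an RB relative and an RB-bound transcription factor, had −0.34 and −0.41 (edgeR adjusted p = 0.257 and 0.274), and CDK6 had 0.42 (edgeR adjusted p = 0.318).

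Of 12 genes of REST and its corepressors, edgeR called 0 (2 at an unadjusted p under 0.05) and DESeq2 0. The scaffold RCOR1 had a log2 fold change of −0.38 (edgeR adjusted p = 0.296), and the deacetylases HDAC1 and HDAC2 had 0.23 and 0.17 (edgeR adjusted p = 0.412 and 0.555). Of 12 neuronal genes that REST is known to repress, 5 were expressed enough to be tested, and edgeR and DESeq2 called 0 (0 at an unadjusted p under 0.05). TUBB3, L1CAM and SYN1 had 0.23, −0.09 and 0.35 (edgeR adjusted p = 0.638, 0.846 and 0.861), SYN1 at 0.495 CPM in the control. Of 15 genes of microRNA processing and function, edgeR called 0 (2 at an unadjusted p under 0.05) and DESeq2 0, with a median of 0.04. DDX17, the close relative of DDX5, stood at 497 ± 39.1 against 596 ± 35.2 CPM (0.26, edgeR adjusted p = 0.409), TNRC6A, a silencing scaffold, had 0.29 (edgeR adjusted p = 0.425) and PRKRA, a Dicer partner, 0.25 (edgeR adjusted p = 0.452). At the level of messenger RNA, SKI and HMGA2 were the only genes of these lists called by edgeR with group as the only term. The DESeq2 Wald test, which also had no replicate block, called TDG, ADAM17, KPNA2 and CDK8 as well.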

How the data were processed

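The deposited tables hold 1 row per transcript with an estimated count and a TPM value, per the file headers, in the layout that kallisto writes. The submitters' processing notes name bcl2fastq 2.20, FastQC 0.11.8, cutadapt 1.11, kallisto 0.46.0 and GRCh38, and the annotation release is not given in the sources used here. The authors' estimated counts were not normalised, and the authors' TPM values had been scaled for length and library total. Libraries were stranded, per the labels' protocols.

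Of 188753 transcripts, 169797 were joined to GENCODE 29 by identifier and 15315 by gene symbol, and 3641 were left out. The version of the identifier was the same for 158775. CTDSP2-201 was not among these. Its exon positions and 3′ UTR are those of the GENCODE 29 version, which differs in length from the 4785 bases given in the deposited tables. The joined transcripts held 99.3% of counts. Counts were summed per gene, rounded, filtered with filterByExpr, scaled by TMM and tested by edgeR 4.0.16 under R 4.3.3 (quasi-likelihood, glmQLFit then glmQLFTest), with group as the only term and Benjamini-Hochberg adjustment over all genes tested. A gene was called at an adjusted p under 0.05. The SE is the size of the log2 fold change divided by the square root of F. CPM values are TMM-scaled.

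The members, gene lists and rules were chosen with earlier results of these data known. Named genes were the members, their transcripts with at least 5% of a gene's counts (all CTDSP2 classes), the called or lowest-p 3 of each list, tested protein-coding neighbours within 200 kb, the 5 genes most correlated with CTDSP2, and called genes with an 8-base match. Genes called higher with a 7-base match, and KPNA2, HMGA1, EZH2 and SMAD7, were named after their values were seen. One item is not reported here.

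Same-numbered libraries share a number in the titles. Their deviations from the group means correlated over 15204 genes (0.21, 0.27 and 0.56 for replicates 1, 2 and 3), so the numbers were taken to pair the libraries, and the block fit is given where it changes a call or a count.

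Alternatives were DESeq2 size factors, the DESeq2 1.42.0 Wald test, no filter, the block, a GC correction, both together, limma-trend (limma 3.58.1) on log2(TPM + 1) and log2(TPM + 0.1), and leaving out each library. The alternatives for the count of 8-base-match genes with the block were chosen after seeing the data. On simulated counts with 200 genes changed by 1 on the log2 scale, edgeR recovered 82.5% with 8 false calls among 15043 genes. The simulated counts had the same spread for every gene and no effect of the replicate number. These rates therefore need not hold for the real libraries.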

Additional observations from a re-analysis of the deposited data

How the results depend on the processing

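The count of genes called, 26 with group as the only term, was 327 by DESeq2's Wald test, 129 without a filter, 377 in the fit with a replicate block and 496 when that block went with the GC correction, and all 26 were kept in each of these. It was 1 by limma-trend at either pseudocount (1 or 0.1 TPM), a gene not among the 26, and 0 to 16 with 1 library left out. It was 0 without control replicate 1 (1242 at an unadjusted p under 0.05) and without siDDX5 replicate 1 (2036). The cause was not tested, beyond the fewer samples of the latter fits.

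CTDSPL had a log2 fold change of 0.091 and 0.096 by the limma-trend settings with pseudocounts of 1 and 0.1, against 0.02, and CTDSPL2 had 0.076 and 0.077, against 0.22. The retained-intron difference of CTDSP2 was 11.2 points of TPM against 4.30 of counts, and the unit makes that difference. CTDSP2 kept its sign in all 14 alternatives and its call in 9. The count of 8-base-match genes called higher with the block was 40, 48 with the GC correction added, 2 with group as the only term, and 64, 74 and 22 without the pair of replicate 1, 2 and 3. The fits without a pair rest on 2 pairs each. The replicate block changed no other call among the values given than those stated beside them. Of 740 values of 53 named genes under the alternatives, 640 kept their side of the threshold, 74 lost and 26 gained a call, and 14 in 9 genes changed sign.

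There were 3 libraries a group and no estimate of the uncertainty in dividing reads among transcripts. With group as the only term, the SEs of CTDSP1 (0.19) and CTDSPL (0.11) on the log2 scale limited the size of difference that could be seen. With the replicate block these SEs were 0.12 and 0.095.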
